A study of Drosophila melanogaster with 5 samples.

Results

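The genes described here are the cytosolic ribosomal protein genes of Drosophila melanogaster. They were taken from the probe sets that the array annotation assigned to a single gene whose symbol starts with RpL (large subunit) or RpS (small subunit), without the mitochondrial mRpL and mRpS genes. The rule also allows sta and sop, but neither had a probe set naming it alone. It gave 37 genes, each by 1 probe set, of 10844 genes with a single-gene probe set and 13966 probe sets tested. The reference gene table lists 93 genes by the same symbols, and the other 56 were not analysed here. RNA came from pupal heads, 15 to 20 heads per extraction, at 80 h after pupa formation. The mutant strain otd-uvi carries an allele of otd (current symbol oc, a homeodomain gene) that the labels call eye-specific, and it gave 3 arrays. Canton S, the wild type, gave 2 arrays, all 5 from separate extractions. Each genotype was 1 strain and its heads were pooled, so the allele and the genetic background of its strain cannot be told apart. Sex was not given.

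Each cytosolic ribosome joins a small subunit, which reads the mRNA, to a large subunit, which forms the peptide bonds. Every growing cell needs its proteins in matched amounts, and flies with a single working copy of many of these genes show the Minute phenotype of slow development and thin bristles. Several fly ribosomal protein genes also exist as a main copy, active in most tissues, and a duplicate copy, often active mainly in the germline. Accordingly the 37 genes were described as 27 main copies (16 of the large and 11 of the small subunit), 7 duplicate copies and 3 genes whose yeast relatives act in ribosome assembly. The protein and promoter sequences of these genes were not used here.

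The targeted gene oc had signals of 27.6, 46.8 and 59.8 in otd-uvi and 71.7 and 56.4 in Canton S. These overlapped, with a log2 difference, otd-uvi minus Canton S on the scale of log2(signal + 8), of -0.49 (adjusted p = 0.527 by limma). The labels do not say whether the allele changes the level of this transcript, so the probe set does not check the strain. Photoreceptor markers were above the brightest mouse or yeast control on all arrays, and 4 of 10 fell (Arr2, trp, inaD and chp). The summed signal of these 10 was 6733 to 8417 in otd-uvi and 13297 to 14906 in Canton S. The summed signal of 9 neuronal markers was 1082 to 1316 in otd-uvi and 1953 to 2109 in Canton S, and none passed an adjusted p of 0.05 while 5 were lower at an unadjusted p under 0.05. Of the glial, muscle and fat body markers none passed either, with 1 of 5 lower, 1 of 6 higher and 2 of 7 lower in otd-uvi at an unadjusted p under 0.05, beside 7.27% lower and 7.77% higher over all probe sets. Of 7 hemocyte markers NimC1 rose (1.93, adjusted p = 0.0242), while at an unadjusted p under 0.05 there were 3 higher and 1 lower, crq at -0.96 (adjusted p = 0.170). The part of these tissues in the values below was not tested. Median signals were 41.8 to 43.1 in otd-uvi and 39.96 to 41.3 in Canton S.

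No ribosomal protein gene passed an adjusted p of 0.05 in limma, a threshold that 0.773% of all probe sets passed. The differences were small for most main copies, and the largest of the 37 in either direction were RpS18, which was lower in otd-uvi, and RpS28a, a duplicate copy, which was higher. At an unadjusted p under 0.05 there were 2 genes lower in otd-uvi, RpS18 and RpS26, or 5.41% of the 37, beside 7.27% of all probe sets. There were also 2 higher, RpS28a and RpL10Aa, again 5.41%, beside 7.77% of all probe sets. The arrays of the groups did not overlap for 9 genes that were lower in otd-uvi (24.3%, beside 15.4% of all probe sets) and for 7 that were higher (18.9%, beside 18.6%). The other 21 genes overlapped. The median log2 difference of the 37 genes was -0.03 with 21 genes below 0 (56.8%). Over all probe sets the median was 0.05, with 44.8% below 0. These backgrounds do not match the genes in signal, since 26 of the 37 lay in the brightest 10% of probe sets. In that class 28.6% did not overlap and were lower, 11.7% did not overlap and were higher, and 65.1% were below 0. For the 26 genes these shares were 30.8%, 3.85% and 69.2%, so the lower shares were close to those of the class. Under quantile normalization the median of the 37 genes turned to 0.06 with 15 below 0, and under median centring it was -0.08 with 28 below 0. In RNA of whole heads, fewer cells of a type and less RNA per cell cannot be told apart.

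**Figure D1:**
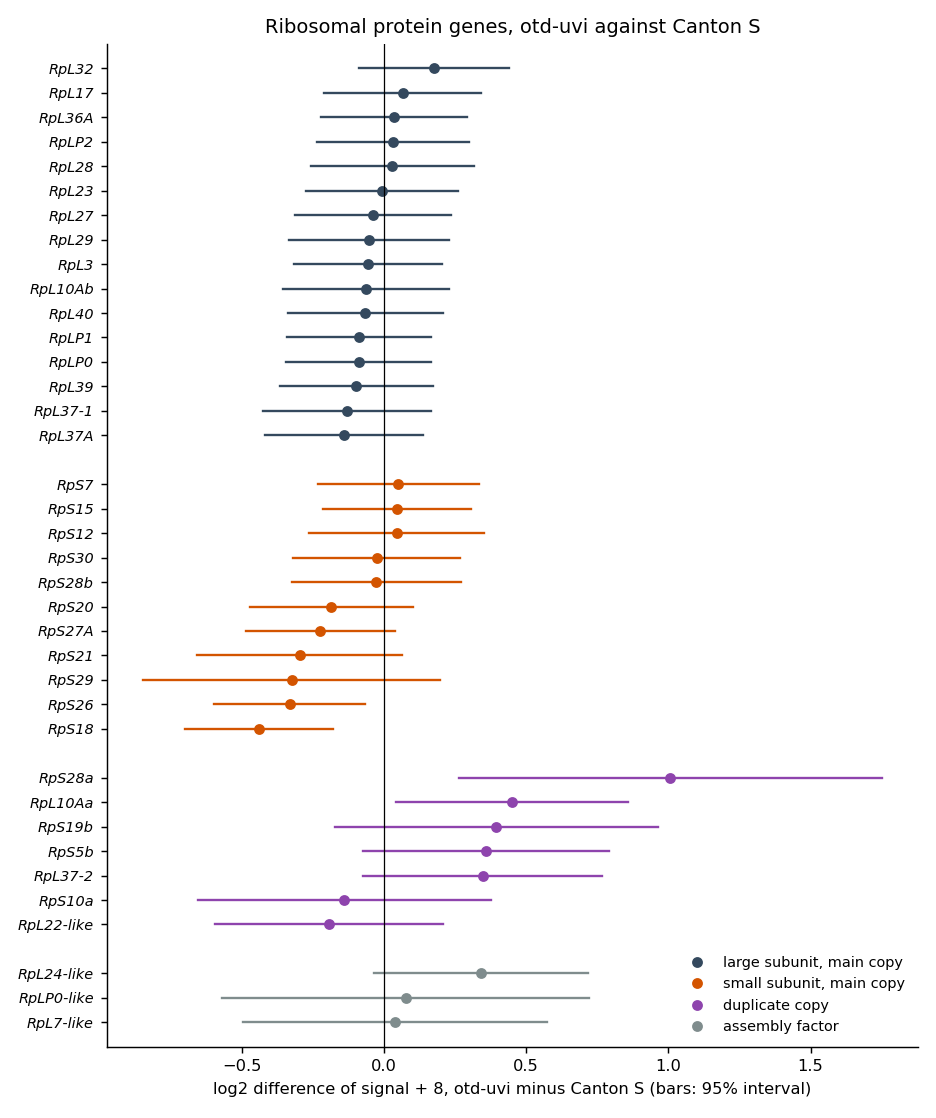
Log2 difference of each of the 37 ribosomal protein genes (x axis, otd-uvi minus Canton S on the scale of log2(signal + 8)), grouped as main copies of the large and the small subunit, duplicate copies and assembly factors. Points are limma estimates and bars their 95% intervals. The interval excludes 0 for RpS18 and RpS26 on the lower side and for RpS28a and RpL10Aa on the higher side, and no gene passed an adjusted p of 0.05.

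The 26 main copies other than RpS29 had mean signals between 1793 and 4348, all within the brightest 10% of probe sets. Signals of different probe sets depend on their probes and are not compared as levels between genes. The spread of main copies between arrays of 1 group was small, with a median SD of 0.09 on the log2 scale, against 0.26 over all probe sets and 0.18 over the brightest 10%. Of the 27 main copies, 18 had their lowest signal on otd-uvi replicate 2 (66.7%, beside 13.2% of all probe sets). The highest signal was on Canton S replicate 1 for 9 of them (33.3%) and on Canton S replicate 2 for 7 (25.9%), beside 19.5% of all probe sets each. It was on otd-uvi replicates 1, 2 and 3 for 4, 1 and 6 (14.8%, 3.7% and 22.2%). Over all probe sets these shares were 20.1%, 18% and 22.9%. Set against the Canton S mean, the median over the 37 genes was 0.01, -0.10 and -0.0002 on otd-uvi replicates 1, 2 and 3.

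The large subunit carries the catalytic centre and the exit tunnel, and its 16 main copies showed no gene with an unadjusted p under 0.05. The median log2 difference was -0.05, the single genes ranged from -0.14 to 0.18, and all 16 intervals lay within a 1.5-fold change either way. Under quantile normalization the median was 0.053, and under cyclic loess 0.0079. RpL3, whose protein reaches close to the peptidyl transferase centre, had signals of 4069, 4247 and 3991 in otd-uvi and 4414 and 4119.6 in Canton S. These groups overlapped, and the log2 difference was -0.06 (SE 0.11, adjusted p = 0.842). RpL10Ab, which forms the mobile L1 stalk beside the exit site, had 4387, 3791 and 4212 in otd-uvi and 4561 and 4078 in Canton S, again with overlap (log2 difference -0.06, 95% interval -0.36 to 0.23).

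The genes of the P stalk, the arm of the large subunit that recruits and activates translation factors, were close to 0 as well. Its base is made by RpLP0, with signals of 2547, 2509 and 2514 in otd-uvi and 2595 and 2781 in Canton S. RpLP1 had 4063, 3912 and 3973 in otd-uvi and 4306 and 4163 in Canton S. In both genes each otd-uvi array was below both Canton S arrays, but the log2 differences were only -0.09 and -0.09 (SE 0.11 each, adjusted p = 0.726 and 0.728). RpLP2, the partner of RpLP1 in the stalk dimers, had 4008, 4075 and 3913 in otd-uvi and 3689.5 and 4151 in Canton S, and its groups overlapped (0.03, 95% interval -0.24 to 0.30).

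RpL32, also called rp49 and much used as a reference gene in fly RNA work, had the highest log2 difference of the main copies. Its signals were 3729.8, 3727 and 3845 in otd-uvi and 3174 and 3504 in Canton S, so that the groups did not overlap. The log2 difference was 0.18 (95% interval -0.09 to 0.44, adjusted p = 0.501), or a ratio of 1.13 between the mean signals. It stayed above 0 in the 8 other settings of the analysis (0.12 to 0.26). RpL32 is named here after its values were seen.

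Of the remaining large-subunit main copies, RpL39, a short protein lining the exit tunnel, had 2200.2, 2394 and 2495 in otd-uvi and 2552 and 2499.6 in Canton S. The groups did not overlap, but the nearest arrays almost met (log2 difference -0.10, adjusted p = 0.718). RpL37-1 had 3302, 2779 and 2786 in otd-uvi and 3216 and 3229 in Canton S, which overlapped (log2 difference -0.13, adjusted p = 0.660). RpL40, made as a fusion with ubiquitin that is later cut off, had 2975, 2777 and 2951 in otd-uvi and 3223 and 2861 in Canton S. The groups also overlapped for RpL17, RpL23, RpL27, RpL28, RpL29, RpL36A and RpL37A, whose ratios of otd-uvi to Canton S mean signal lay between 0.908 (RpL37A) and 1.05 (RpL17). Other probe sets that the annotation shares between RpLP0 or RpL36A and a different gene were not counted. The RpLP0 one had signals of 597, 679 and 609 in otd-uvi and 565 and 634 in Canton S, which overlapped. Its log2 difference was 0.07 (adjusted p = 0.841), opposite in sign to that of the single-gene RpLP0 probe set.

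The small subunit binds the mRNA and checks the match of codon and tRNA. Its 11 main copies had a median log2 difference of -0.19, with 8 below 0 (72.7%), beside 11 of 16 (68.8%) in the large subunit. In 5 of the 11 (45.5%) every otd-uvi array was below both Canton S arrays, against 3 of 16 (18.8%) in the large subunit. The same held for 15.4% of all probe sets and for 28.6% of the brightest 10%. Without RpS29, whose difference rested on 1 array, the median was -0.11. The difference between the subunits was not tested, since it was noticed in these values. Against the Canton S mean, the median over the 11 genes was -0.06, -0.20 and -0.13 on otd-uvi replicates 1, 2 and 3. The brightest 10% of probe sets as a whole had a median of -0.09, with 65.1% below 0.

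RpS18, whose protein lies at the top of the head of the subunit near the large one, had signals of 2879.6, 2758 and 2942 in otd-uvi and 4032 and 3739.6 in Canton S. The gap between the groups was several times wider than the spread within either. Mean signals were 2859.9 ± 93.6 in otd-uvi and 3886 ± 207 in Canton S (SD, n = 3 and 2). The ratio was 0.736 and the log2 difference -0.44 (95% interval -0.70 to -0.18, adjusted p = 0.149). The value stayed between -0.50 and -0.37 in the 8 other settings and between -0.49 and -0.39 without any 1 array. It passed the threshold in 1 of those settings, when the dimmest 40% of probe sets were left out (adjusted p = 0.0489).

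RpS26, which lines the mRNA exit channel and is placed there by a dedicated chaperone in yeast, had 3992, 3624 and 3629 in otd-uvi and 4645 and 4792 in Canton S. Here too all otd-uvi arrays were below both Canton S arrays. The mean signals were 3749 ± 211 in otd-uvi and 4718 ± 104 in Canton S, with a ratio of 0.794 and a fitted log2 change of -0.33 (95% interval -0.60 to -0.07, adjusted p = 0.252). The value ranged from -0.39 to -0.27 in the 8 other settings and from -0.38 to -0.31 without any 1 array.

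Of the other small-subunit genes, 3 had groups that did not overlap and missed an unadjusted p of 0.05. RpS21 had 2835, 2243 and 2987 in otd-uvi and 3461 and 3109.7 in Canton S, with replicate 2 the lowest (log2 difference -0.30, 95% interval -0.66 to 0.06, adjusted p = 0.419). Without otd-uvi replicate 2 its value was -0.17. RpS27A, like RpL40 made as a ubiquitin fusion, had 2168, 1978 and 1996 in otd-uvi and 2353 and 2432 in Canton S. Its log2 difference was -0.23 (95% interval -0.49 to 0.04, adjusted p = 0.403). The third, RpS20, a protein of the subunit's head, had 4489.8, 4087 and 3796 in otd-uvi and 4569 and 4798 in Canton S, where otd-uvi replicate 1 came close to the lower Canton S array. Its log2 difference was -0.19 (adjusted p = 0.515), and with the ratio of 3-prime to 5-prime control signal as a covariate it was -0.08.

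Signals overlapped between the groups for the 6 other small-subunit main copies. RpS29, a small zinc-binding protein, had 180.0, 139.6 and 159.6 in otd-uvi and 162 and 249 in Canton S. The log2 difference of -0.33 (95% interval -0.85 to 0.20) rested on Canton S replicate 2, without which it was -0.03. RpS7 had 4276, 3787 and 4274 in otd-uvi and 4139.8 and 3798 in Canton S. RpS15, whose tail reaches towards the decoding site, had 3714, 3805 and 3910.2 in otd-uvi and 3536 and 3855 in Canton S. RpS12, known in flies for its part in cell competition between Minute and wild-type cells, had 1954, 1843 and 2218 in otd-uvi and 2056 and 1826 in Canton S. These 3 genes had ratios of mean signal between 1.03 and 1.04. RpS30, made as a fusion with a ubiquitin-like protein, and RpS28b, the main copy of its family, both had a log2 difference of -0.03 (adjusted p = 0.940 each), and both turned above 0 under quantile normalization and cyclic loess.

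**Figure D2:**
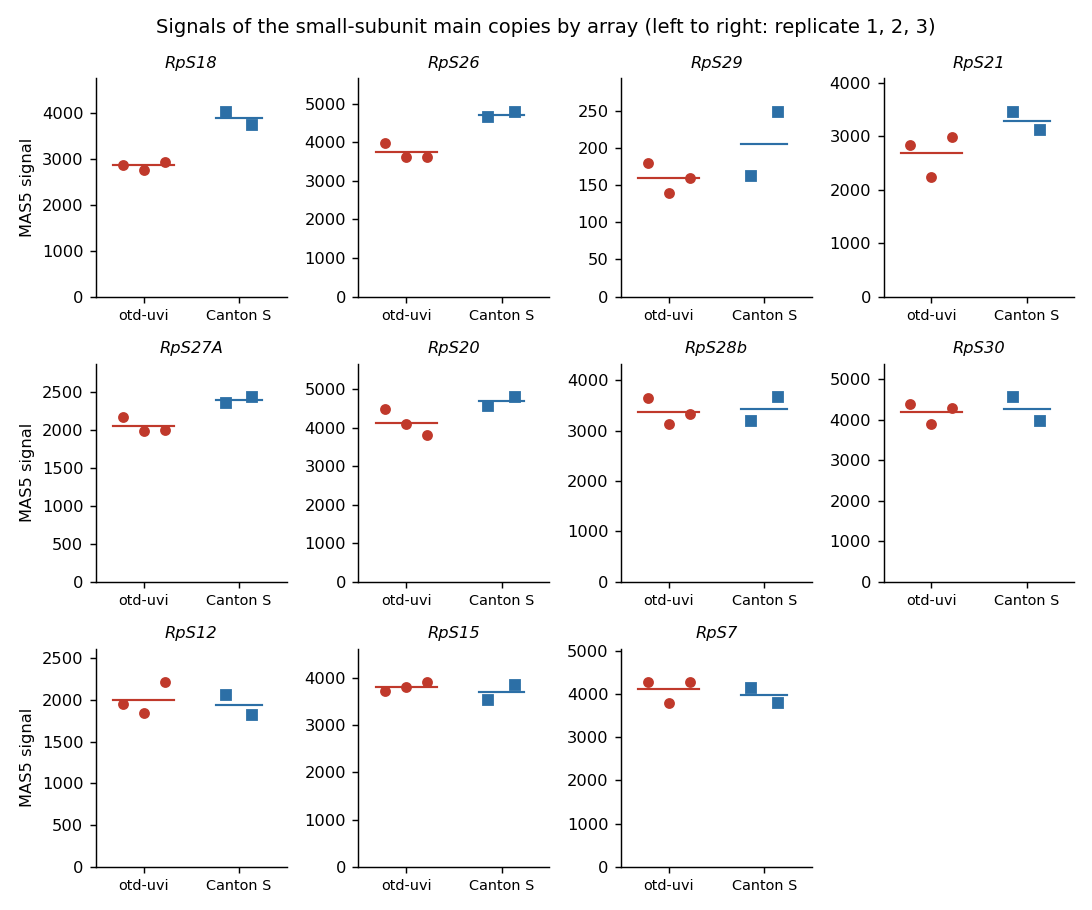
MAS5 signals (y axis, linear, from 0) of the 11 small-subunit main copies in otd-uvi (red circles, replicates 1 to 3 from left to right) and Canton S (blue squares, replicates 1 and 2). Lines are group means. RpS18 and RpS26 show a clear gap between the groups, at ratios of 0.736 and 0.794, while RpS7, RpS12, RpS15, RpS28b, RpS29 and RpS30 overlap.

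RNA integrity was gauged from the actin, GAPDH and eIF-4a controls of the array, by dividing the 3-prime by the 5-prime signal. As a mean log2 ratio this was 1.32, 1.68 and 1.88 on the otd-uvi arrays and 1.41 and 1.37 on the Canton S arrays. With it as a covariate, the median of the 11 small-subunit genes was -0.08 and that of the 16 large-subunit genes -0.04. The log2 difference with the covariate was -0.45 for RpS18, -0.27 for RpS26, -0.31 for RpS21 and -0.17 for RpS27A.

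Among the 7 duplicate copies, 5 had every otd-uvi array above both Canton S arrays and 1 had every otd-uvi array below. Over all probe sets 18.6% lay above in this way, and 23.0%, 25.2% and 26.1% in the 3 dimmest of 10 equal classes of mean signal, where most of the duplicates fell. Their median log2 difference was 0.36, and 0.15 with a pseudocount 4 times larger. Signals were low: RpL10Aa, RpL22-like, RpS10a and RpS19b were on no array above the brightest of 8 controls for mouse and yeast genes, for which fly RNA holds no match. Those controls had a median signal of 7.22, 7.92 and 7.03 on the otd-uvi arrays and 3.69 and 3.07 on the Canton S arrays. Probe sets of low signal were shifted the same way as a whole, with a median log2 difference of 0.27 in the third of 10 equal classes of mean signal, which holds RpS28a.

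RpS28a had signals of 28.0, 11.8 and 21.7 in otd-uvi and 6.57 and 5.04 in Canton S. All 3 otd-uvi arrays were above the brightest control of that array, and neither Canton S array was. The means were 20.5 ± 8.14 in otd-uvi and 5.80 ± 1.08 in Canton S (SD, n = 3 and 2), and the log2 difference was 1.01 (95% interval 0.26 to 1.75, adjusted p = 0.224). With a pseudocount 4 times larger it was 0.46. Its main copy RpS28b had 3644, 3140.3 and 3334 in otd-uvi and 3203 and 3674 in Canton S, which overlapped.

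RpL10Aa, the duplicate of RpL10Ab, had 5.82, 1.71 and 3.92 in otd-uvi and 0.529 and 0.610 in Canton S. The log2 difference was 0.45 (95% interval 0.04 to 0.86, adjusted p = 0.292), within a signal range that the foreign controls also fill. With a pseudocount 4 times larger it was 0.14. RpS19b, known from the germline, had 5.71, 6.36 and 13.3 in otd-uvi and 4.22 and 4.31 in Canton S, and its log2 difference of 0.40 (adjusted p = 0.482) was 0.19 without otd-uvi replicate 3.

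The brighter duplicates, RpS5b and RpL37-2, were above the controls on all arrays. By mean signal they fell in classes 8 and 9 of the 10, counted from the dimmest. There 13.7% and 11.5% of probe sets had every otd-uvi array above both Canton S arrays, and the median log2 differences were -0.09 and -0.13. RpS5b, the copy of the uS7 protein known from the female germline, had 105, 110.1 and 99.9 in otd-uvi and 77.9 and 82.7 in Canton S. RpL37-2, the duplicate of RpL37-1, had 259, 191 and 207 in otd-uvi and 175 and 164 in Canton S. In both the groups were apart, with log2 differences of 0.36 (SE 0.18, 95% interval -0.08 to 0.79) and 0.35 (SE 0.18, 95% interval -0.07 to 0.77) and an adjusted p = 0.417 each. RpL37-2 thus was above its Canton S values on every otd-uvi array while RpL37-1 overlapped. The difference between the copies was not tested, and signal from a near-identical copy cannot be told apart on such probe sets.

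The 2 other duplicates had log2 differences below 0. RpL22-like, described in testis and in the fly eye, had 2.57, 4.43 and 4.43 in otd-uvi and 6.53 and 4.48 in Canton S (log2 difference -0.19, 95% interval -0.59 to 0.21, adjusted p = 0.627). RpS10a had 7.31, 2.34 and 3.69 in otd-uvi and 7.02 and 4.18 in Canton S, which overlapped (-0.14, adjusted p = 0.794). Neither signal was above the controls in either strain.

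**Figure D3:**
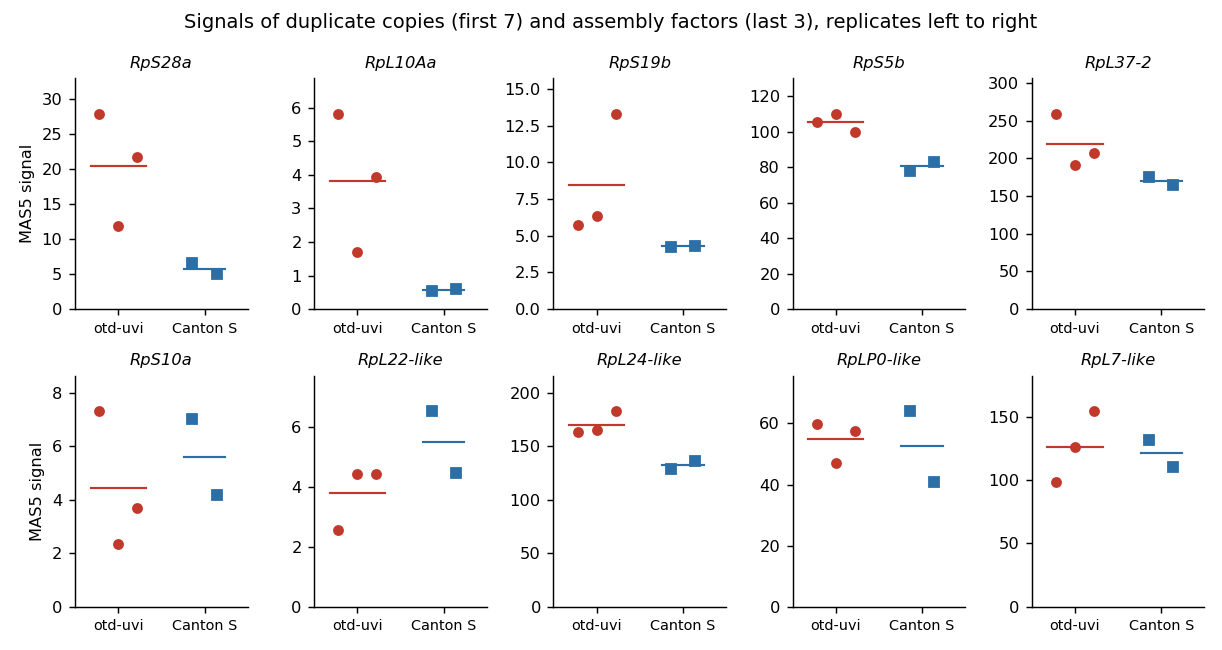
MAS5 signals (y axis, linear, from 0, a separate scale per gene) of the 7 duplicate copies, from RpS28a to RpL22-like, and of RpL24-like, RpLP0-like and RpL7-like, in otd-uvi (red circles, replicates 1 to 3 from left to right) and Canton S (blue squares, replicates 1 and 2). Lines are group means. In 5 duplicates and in RpL24-like each otd-uvi array is above both Canton S arrays.

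Since some duplicates are germline genes, transcripts of the male germline were set beside them. Of 19 measured male germline genes 2 rose, Mst84Db and Mst84Dd, 7 had an unadjusted p under 0.05, all higher in otd-uvi (36.8%, beside 7.77% of all probe sets), and 10 had every otd-uvi array above both Canton S arrays (52.6%, beside 18.6%). The summed signal of the 19 genes was 1274 to 1929.9 in otd-uvi and 1062 to 1160.2 in Canton S, and 5 of them were on no array above the brightest control. Much of this sum came from bol, which overlapped, with 753, 757 and 931 in otd-uvi and 898 and 828 in Canton S. Mst84Db had 133, 75.9 and 135 in otd-uvi and 11.2 and 14.0 in Canton S, a log2 difference of 2.54 (adjusted p = 0.0221). Mst84Dd had 251, 114 and 265 in otd-uvi and 33.8 and 32.7 in Canton S (2.31, adjusted p = 0.0467). Among the otd-uvi arrays, replicate 2 was the lowest for 4 of the 7 duplicates, 11 of the 19 male germline genes and 21 of the 27 main copies (77.8%), beside 30.7% of all probe sets. The RNA came from heads, and whether the male germline transcripts and the duplicates share a source was not tested.

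**Figure D4:**
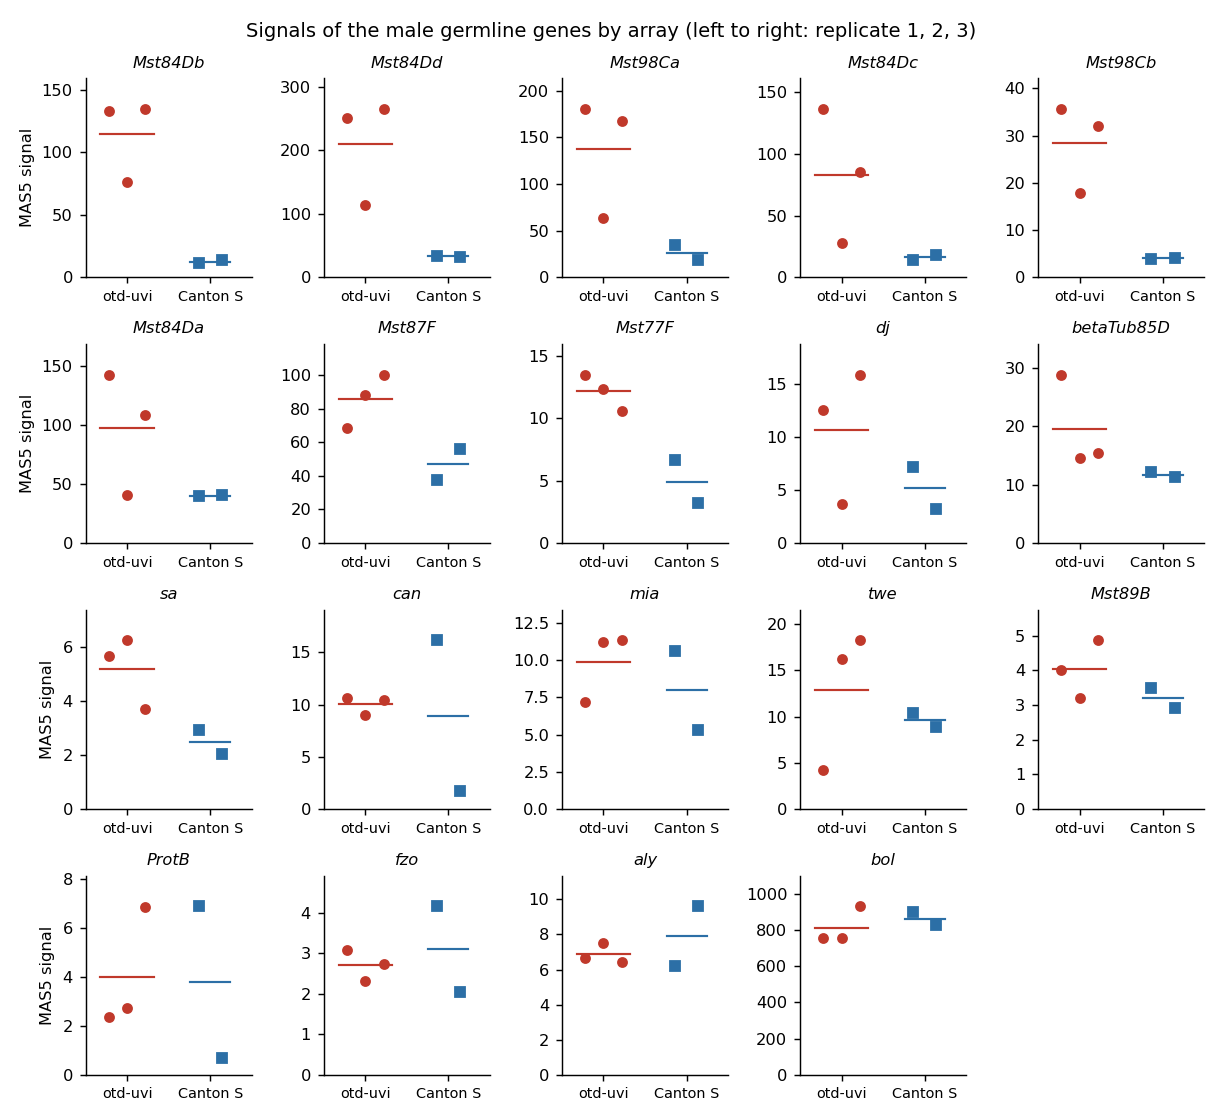
MAS5 signals (y axis, linear, from 0, a separate scale per gene) of all 19 measured male germline genes, ordered by log2 difference, in otd-uvi (red circles, replicates 1 to 3 from left to right) and Canton S (blue squares, replicates 1 and 2). Lines are group means. In 10 genes each otd-uvi array is above both Canton S arrays, and in the other 9 the groups overlap.

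Female germline markers were also set beside them. Of 8 measured genes 1 was higher at an unadjusted p under 0.05 (12.5%, beside 7.77% of all probe sets), the eggshell gene Vm26Aa (log2 difference 1.28, adjusted p = 0.111). The genes osk, vas, aub and bam, which define the germline itself, were on no array above the brightest control. The summed signal of all 8 genes was 208 to 295 in otd-uvi and 190.4 to 207 in Canton S.

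The 3 genes named for a likeness to ribosomal proteins belong to the assembly line rather than to the finished ribosome, as known from yeast. RpL24-like had 163, 165 and 183 in otd-uvi and 129 and 137 in Canton S, with no overlap, at 0.34 on the log2 scale (SE 0.16, 95% interval -0.03 to 0.72, adjusted p = 0.374). RpLP0-like had 60.0, 47.0 and 57.6 in otd-uvi and 64.0 and 41.0 in Canton S. RpL7-like had 98.6, 126 and 154 in otd-uvi and 132 and 111 in Canton S. For both the groups overlapped, at 0.08 (95% interval -0.57 to 0.72) and 0.04 (95% interval -0.50 to 0.57), and the sign turned in some settings or without some arrays.

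**Figure D5:**
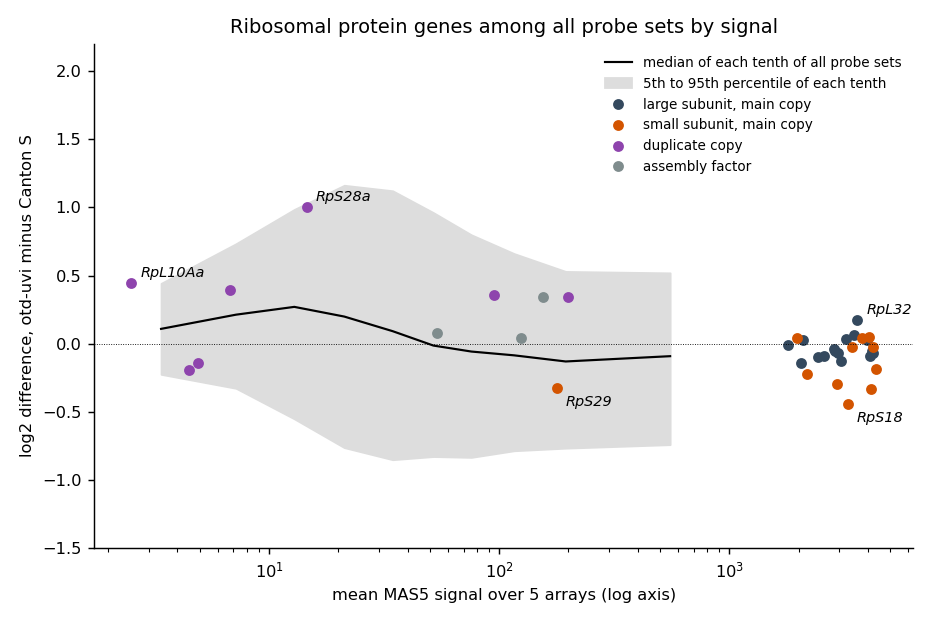
Log2 difference (y axis, otd-uvi minus Canton S) against mean MAS5 signal over the 5 arrays (x axis, log scale) for the 37 ribosomal protein genes, coloured by group. The black line joins the medians of 10 equal classes of all 13966 probe sets by signal, drawn at each class's median signal, and the grey band spans their 5th to 95th percentiles. The main copies other than RpS29 sit at the bright end near 0, with RpS18 the lowest, and RpS28a lies near the top of the band.

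Genes that act with the ribosome were described from lists of translation factors, assembly genes and regulators of ribosome supply. Of 36 measured translation factors none passed by limma, 4 were lower and 1 higher at an unadjusted p under 0.05, or 11.1% and 2.78% of the list beside 7.27% and 7.77% of all probe sets. The median log2 difference was -0.09 with 29 below 0 (80.6%), and the brightest 10% of probe sets had the same median with 65.1% below 0. The lowest were eRF3, a release factor, at -0.64 (adjusted p = 0.363), the initiation factor subunit eIF3l at -0.58 (adjusted p = 0.290) and eEF1alpha2, an elongation factor copy, at -0.52 (adjusted p = 0.208). The initiation factor subunit eIF3g1 followed at -0.49 (adjusted p = 0.232). Rack1, a scaffold protein bound to the small subunit, had 3086, 3365 and 3283 in otd-uvi and 3341 and 3504 in Canton S, which overlapped.

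Of 30 measured genes of ribosome assembly 1 rose, Nop10, part of the particles that modify ribosomal RNA. Its signals were 40.6, 66.9 and 80.5 in otd-uvi and 6.47 and 5.99 in Canton S, where they were not above the brightest control, and the log2 difference was 2.27 (SE 0.34, adjusted p = 0.0404). The list had a median of 0.21, beside 0.05 over all probe sets. At an unadjusted p under 0.05 there were 4 genes higher (13.3%, beside 7.77% of all probe sets) and 2 lower (6.67%, beside 7.27%). Its other large differences were Non3 at 0.90 (adjusted p = 0.263), pit, a helicase gene, at -0.89 (adjusted p = 0.219), and Nopp140, a nucleolar protein gene, at 0.89 (adjusted p = 0.254). Gar1 and NHP2, which share the particle with Nop10, were at 0.76 and 0.32 (adjusted p = 0.333 and 0.618), each with all otd-uvi arrays above both Canton S arrays, and Nop60B, its enzyme, was at -0.07 (adjusted p = 0.933). In the list 10 of 30 genes (33.3%) lay above in this way, beside 18.6% of all probe sets. Gar1, NHP2 and Nop60B were named after their values were seen.

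Of 15 measured regulators none passed by limma and 1 was lower at an unadjusted p under 0.05 (6.67%, beside 7.27% of all probe sets). This was REPTOR, a factor that acts when the growth kinase TOR is off, at -0.84 (adjusted p = 0.289). The next were Trf2, a core promoter factor that serves ribosomal protein genes, at -0.46 (adjusted p = 0.359), REPTOR-BP, the partner of REPTOR, at 0.40 (adjusted p = 0.363) and Max, the partner of Myc, at -0.34 (adjusted p = 0.493). M1BP and Dref, which bind promoters of many ribosomal protein and other housekeeping genes, were at -0.15 and -0.31 (adjusted p = 0.750 and 0.651). Mitochondrial ribosomal protein genes, which serve a separate ribosome, numbered 64 and had a median of 0.18 with 45 above 0. None passed by limma, and 5 were higher (7.81%) and 1 lower (1.56%) at an unadjusted p under 0.05, beside 7.77% and 7.27% of all probe sets.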

How the data were processed

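Biotin-labelled RNA of 5 head samples was hybridised, each to its own Affymetrix array. The authors deposited linear signal intensities, made with MAS5 per the submitters' processing notes. The array medians lie close together. Total signal was 2.14e+06, 2.20e+06 and 2.14e+06 on the otd-uvi arrays and 2.27e+06 and 2.29e+06 on the Canton S arrays. Version, settings and detection calls are not given in the sources used here. A single gene was annotated for 12443 probe sets, more than 1 gene for 327 and no gene for 1196. By gene identifier 12394 names were updated. No genome build is given.

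Signals were analysed as log2(signal + 8), 8 being the rounded 20th percentile. After 44 control probe sets were left out, 13966 entered a linear model with strain as the only term, using lmFit and eBayes with an intensity trend from limma 3.58.1 under R 4.3.3 (residual df 3, prior df 4.16) and Benjamini-Hochberg adjustment over all probe sets. The code was also run on simulated data drawn with the spread that limma had fitted. Such a run checks the code and not the results above. Whether extractions came from separate cultures is not given, so p-values measure the spread between these samples, and the number of arrays limits precision. The linear model took replicate numbers as labels only. Deviations of same-numbered arrays correlated at -0.0045 and 0.12. With so few arrays per group, these values cannot show whether same-numbered arrays were processed together.

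The members and lists were chosen with earlier results of these data known. Named were oc, genes with an unadjusted p under 0.05, the 4 largest differences each way, the 5 brightest and 5 dimmest, stalk genes, paralog families and up to 4 members per list. Other genes, such as RpS27A, RpL32, M1BP, Dref, Gar1, NHP2, Nop60B and Rack1, were added after their values were seen.

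Alternatives were 3 normalizations, another pseudocount, a filter on dim probe sets, no trend, a replicate block, a covariate for 3-prime to 5-prime ratios and leaving out each array.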

Additional observations from a re-analysis of the deposited data

Results flagged for a closer look

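The array carries control probe sets for the 18S ribosomal RNA, the RNA core of the small subunit, which no comparison above uses. The one from the 5-prime end had 4.47, 4.05 and 2.29 in otd-uvi and 1.13 and 0.391 in Canton S, with a mean of 3.60 ± 1.15 in otd-uvi. The one from the middle had 25.3, 17.4 and 16.0 in otd-uvi and 12.9 and 2.56 in Canton S, with a mean of 19.6 ± 5.04 in otd-uvi. Both were singled out because every otd-uvi array was above both Canton S arrays. The one from the 3-prime end overlapped, at 4.08, 1.53 and 1.35 in otd-uvi and 3.29 and 1.26 in Canton S. The mouse and yeast controls were higher in otd-uvi too, with medians of 7.22, 7.92 and 7.03 in otd-uvi and 3.69 and 3.07 in Canton S, and their part in these values was not tested.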

How the results depend on the processing

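No ribosomal protein gene passed the threshold in the other settings, with 1 exception, RpS18 without the dimmest 40% of probe sets (adjusted p = 0.0489). The count of calls among all probe sets was 108, 208 without the dimmest 40%, 8 with the 3-prime to 5-prime covariate, 1 with the replicate block, and 2 (without Canton S replicate 2) to 22 (without otd-uvi replicate 2) without 1 array. The median of the 37 genes was 0.062 under quantile normalization, 0.03 under cyclic loess, -0.085 under median centring and -0.05 to 0.02 without 1 array. The number of genes below 0 was 21, but 15 under quantile normalization, 14 under cyclic loess, 28 under median centring and 18 to 24 without 1 array. The number at an unadjusted p under 0.05 was 4, but 2 without the dimmest 40% (which leaves 32 of the 37 genes), 2 without the intensity trend, and 1 (without Canton S replicate 2) to 4 without 1 array. With the replicate block the median was -0.05 and 3 genes had an unadjusted p under 0.05. Of 195 single-gene values in 8 settings 11 had the opposite sign. Under quantile normalization these were RpS28b (0.062) and RpS30 (0.036). Under median centring they were RpL7-like (-0.019) and RpLP2 (-0.027). Under cyclic loess they were RpL3 (0.00060), RpS28b (0.036) and RpS30 (0.030). With the replicate block it was RpL7-like (-0.11). With the covariate they were RpL7-like (-0.22), RpS10a (0.036) and RpS28b (0.042). Without 1 array the sign turned for RpL10Ab (-0.15 to 0.016), RpL7-like (-0.11 to 0.19), RpLP0-like (-0.20 to 0.35), RpLP2 (-0.054 to 0.12), RpS10a (-0.30 to 0.011), RpS28b (-0.13 to 0.072) and RpS30 (-0.13 to 0.075). The cause was not tested. Averaging all probe sets of a gene was not run, since each of the 37 genes had 1. With 1 Canton S array left, that array is assumed to vary like the otd-uvi arrays. Without detection calls, the dim duplicates are limited by signal over background.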
